A study of Homo sapiens with 132 samples.

Results

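Small nucleolar RNA (snoRNA) host genes are transcribed genes whose introns carry the snoRNAs that guide chemical modification of ribosomal RNA. The genes described here were every gene identifier of the count files whose symbol was SNHG followed by a number, or GAS5, ZFAS1 or EPB41L4A-AS1. That rule gave 32 of the 65217 identifiers and used no measured value. Of the 32, 4 carried the symbol only in the current gene name table and had other names in GENCODE 29: SNHG29 was LRRC75A-AS1, SNHG30 was LINC02001, SNHG31 was AC016708.1 and SNHG32 was C6orf48. ENSG00000256029 carried the name SNHG28 only in GENCODE 29, where it shares exon bases with the current SNHG28 (ENSG00000188004), VSIG8 and CFAP45, so its counts are uncertain and it is called by its identifier.

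After splicing, the snoRNA is trimmed out of the excised intron and joins a small nucleoprotein particle, while the exons of most of these genes make a long RNA with little coding potential. Several of the spliced RNAs begin, like ribosomal protein mRNAs, with a tract of pyrimidines at the 5′ end, the 5′ TOP motif, and many are degraded by nonsense-mediated decay when they are translated. GAS5, growth arrest-specific 5, is the member named for its accumulation in cells that stop growing, and translation controlled through the mTOR pathway is known to set its turnover.

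The libraries came from 4 established gastric cancer cell lines, MKN1, MKN7, N87 (NCI-N87) and Hs746T, each a single line. RNA of cells left untreated or treated for 4 h or 24 h was sequenced in 3 libraries per group, which the labels call biological triplicates, giving 132 libraries in 44 groups. MKN1 and Hs746T were left untreated or received epidermal growth factor (EGF, 5 ng/ml), the EGFR antibody cetuximab (Cet, 1 µg/ml), EGF with Cet, the HER2 antibody trastuzumab (Tra, 5 µg/ml), the EGFR and HER2 kinase inhibitor afatinib (Afa, 0.5 µM), or Tra with Afa. MKN7 and N87 were left untreated or received Tra, Afa or both. Afatinib was compared with untreated cells, as no solvent control was among the libraries, and all comparisons of a line at 1 time share its 3 untreated libraries.

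The libraries held 25832557 to 69434151 counts, with a median of 50725775, and 0.0929 to 0.217% of them fell on the 32 genes. Levels are CPM (counts scaled to a common library total) after TMM scaling over all 132 libraries. The lines differed in epithelial markers: the epithelial cadherin CDH1 had a median of 243 CPM in MKN7 and 256 CPM in N87 but of 1.998 CPM in MKN1 and 0.785 CPM in Hs746T. EPCAM went the same way (626, 496, 25.1 and 35.5 CPM). The keratin KRT8 differed, with medians of 11066 CPM in MKN1, 3083 CPM in MKN7, 9662 CPM in N87 and 342 CPM in Hs746T. KRT18 and KRT19 were likewise high in MKN1 (2984 and 4166 CPM) and low in Hs746T (150 and 26.4 CPM). The mesenchymal filament gene VIM had medians of 559 CPM in MKN1 and 1595 CPM in Hs746T, against 3.74 CPM in MKN7 and 4.17 CPM in N87. ZEB1 was higher in the same lines (34.9 and 57.3 CPM against 2.68 and 8.28 CPM). The mesenchymal cadherin CDH2 was high in Hs746T alone (79.8 CPM), at 0.399 CPM in MKN1. The leukocyte gene PTPRC did not exceed 0.664 CPM in any library, while the endothelial gene PECAM1 and the collagen gene COL1A1 had medians of 155 and 523 CPM in Hs746T.

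Of the 32 genes, 25 had at least 1 count in every library, and 26 passed the count filter in every fit. SNHG18 was at 0 in 1 library. SNHG27 never exceeded 3 counts. The remaining 5 were listed at 0 in all 132 libraries: EPB41L4A-AS1, SNHG3, SNHG4, SNHG20 and SNHG22.

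The zeros followed gene position. SNHG3 (chr1:28505980-28510892, plus strand, inside RCC1), SNHG4 (chr5:139274102-139284899, plus strand) and EPB41L4A-AS1 (chr5:112160526-112164276, plus strand) lie within the span of a longer gene in GENCODE 29. Among all genes of the files that lie inside a longer gene, 7484 of 7725 on the same strand (96.9%) and 9413 of 9733 on the opposite strand only (96.7%) were also at 0 in every library. Of genes overlapping another gene without lying inside it, 625 of 15805 were at 0 (3.95%), and of genes overlapping none 3249 of 23550 (13.8%). The pattern did not need shared exons, since 12509 of 12911 nested genes with no exon base in common with another gene were at 0 (96.9%). All 143 snoRNA genes annotated inside 30 of the members were at 0 as well. The libraries were of poly(A) RNA, and what that contributed to the snoRNA zeros was not tested. Among protein-coding genes inside a longer gene on the same strand, 427 of 447 (95.5%) were at 0. A listed 0 for SNHG3, SNHG4 or EPB41L4A-AS1 is therefore no measure of its expression. SNHG20 and SNHG22 were at 0 without lying inside a longer gene, and SNHG28 lies inside one and had counts.

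**Figure D1:**
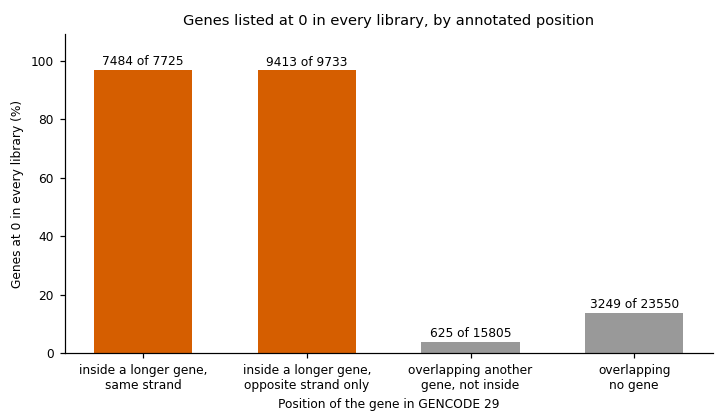
Share of genes listed at 0 in all 132 libraries (y axis, percent) by their position in GENCODE 29 (x axis), with the number at 0 and the number of genes above each bar. Genes inside a longer gene were at 0 in 96.9% and 96.7% of cases, the other genes in 3.95% and 13.8%.

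RefSeq (GRCh38.p14) gave a window of 250 bases before and 50 bases from the annotated start for 27 of the 32 genes. Since a 5′ TOP RNA starts with a C followed by pyrimidines, the windows were searched, on the strand of the gene, for a C at the start followed by at least 4 further pyrimidines. It was found in 7 of 27 members (25.9%), SNHG4, SNHG5, SNHG12, SNHG18, SNHG19, SNHG32 and ZFAS1, and in 1429 of all 35116 promoters (4.07%). When the run of at least 5 pyrimidines, opening with C, could begin anywhere within 10 bases of the start, 16 members (59.3%) and 33.5% of all promoters held it. The E-box CACGTG, the sequence bound by MYC with MAX, was in the 300 bases of SNHG7 and SNHG30, 2 of 27 members (7.41%), against 7.26% of all promoters. SNHG15, SNHG9 and SNHG25 had no window. The windows below run 5′ to 3′ from 20 bases before the start to 40 bases from it, with the longest run of at least 5 pyrimidines that opens with C and begins within 10 bases of the start in capitals. They are shown for genes on which the treatment results turn, first 4 that fell under afatinib in at least 2 lines, then ZFAS1, then 5 abundant members that were called in none of the 3 lines with afatinib effects at 24 h in fits without the replicate block.
SNHG1 (chr11:62855846-62855905, minus strand): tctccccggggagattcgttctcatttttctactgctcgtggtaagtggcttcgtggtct
SNHG12 (chr1:28581834-28581893, minus strand): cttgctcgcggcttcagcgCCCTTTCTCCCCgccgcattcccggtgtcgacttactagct
SNHG16 (chr17:76557744-76557803, plus strand): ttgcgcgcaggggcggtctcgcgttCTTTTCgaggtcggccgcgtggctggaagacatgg
SNHG17 (chr20:38435289-38435348, minus strand): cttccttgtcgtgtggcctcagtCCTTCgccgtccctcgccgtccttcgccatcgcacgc
ZFAS1 (chr20:49278622-49278681, plus strand): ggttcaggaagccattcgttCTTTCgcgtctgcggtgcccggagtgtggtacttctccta
GAS5 (chr1:173869006-173869065, minus strand): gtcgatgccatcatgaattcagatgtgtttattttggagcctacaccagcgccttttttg
SNHG5 (chr6:85678694-85678753, minus strand): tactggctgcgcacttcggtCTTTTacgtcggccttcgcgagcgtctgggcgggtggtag
SNHG8 (chr4:118278742-118278801, plus strand): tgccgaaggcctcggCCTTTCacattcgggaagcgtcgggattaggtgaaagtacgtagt
SNHG29 (chr17:16438967-16439026, plus strand): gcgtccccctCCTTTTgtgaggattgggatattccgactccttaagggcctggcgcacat
SNHG32 (chr6:31834896-31834955, plus strand): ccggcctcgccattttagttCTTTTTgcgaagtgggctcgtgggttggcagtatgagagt

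Such runs stood near the start in genes that fell, such as SNHG12, and in SNHG8 and SNHG29, which were not called at 24 h of afatinib in N87, MKN7 or MKN1 with or without the replicate block. SNHG1 and GAS5 had no such run opening with C within 10 bases of the start. A window rests on 1 annotated start per gene, and that of GAS5 (chr1:173869045) lies upstream of the GENCODE 29 gene (chr1:173863900-173868882, minus strand). A match, or its absence, describes these letters only.

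Per kilobase of annotated exon, the highest members over all libraries were SNHG32 (median 83.4 CPM per kb), ZFAS1 (72.3 CPM per kb), SNHG29 (63.9 CPM per kb), SNHG8 (63.5 CPM per kb), SNHG19 (54.5 CPM per kb) and GAS5 (50.03 CPM per kb). SNHG6, SNHG1, SNHG7, SNHG5 and SNHG25 followed at 15.7 to 44.1 CPM per kb. SNHG17, SNHG30 and SNHG15 had medians of 10.3 to 10.98 CPM per kb, and SNHG12, SNHG9, SNHG26, SNHG16, SNHG11, SNHG18 and SNHG21 of 2.07 to 8.01 CPM per kb. SNHG10, SNHG28, SNHG31, ENSG00000256029 and SNHG14 stayed below 1 CPM per kb. Exonic length is that of all annotated transcripts together, so these values set no level per molecule.

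The untreated lines differed most in SNHG14, the host of the imprinted SNORD115 and SNORD116 clusters. It shares 2426 exon bases with AC124312.3, AC124312.1 and SNRPN on the same strand and 198 with UBE3A on the opposite strand. Its untreated libraries ran from 36.8 to 61.4 CPM in Hs746T (median 40.1 CPM, n = 6) and did not exceed 0.733 CPM in MKN1, 0.783 CPM in MKN7 or 0.905 CPM in N87. Hs746T stood apart with no overlap, by a log2 difference of -7.39 (SE 0.35) for MKN7 against Hs746T.

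SNHG18, the host of SNORD123, ran from 10.97 to 15.7 CPM in untreated Hs746T and from 0 to 0.700 CPM in N87, a log2 difference of -5.90 (SE 0.39) for N87 against Hs746T. Within N87 the replicate 1 libraries stood above the other replicates in every group. In untreated cells at 24 h SNHG18 was 0.700, 0.0421 and 0 CPM, and at 24 h of afatinib 1.52, 0.338 and 0.227 CPM.

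SNHG32, the host of SNORD48 and SNORD52, had medians of 242 CPM in MKN1, 165 CPM in MKN7 and 128 CPM in Hs746T but of 18.6 CPM in N87. The highest untreated N87 library (23.8 CPM) lay far below the lowest of the other lines (117 CPM), with a log2 difference of -3.79 (SE 0.14) for N87 against MKN1 and an adjusted p of 1.39e-25 in edgeR's quasi-likelihood test. The 6 untreated libraries of a line are 3 replicate numbers at 4 h and 24 h, which the fit took as independent. Same-numbered libraries shared deviations (correlations of 0.103 to 0.793), so SEs and p-values between untreated lines may be too small.

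SNHG5, the host of SNORD50B, was high in Hs746T, at 150 to 216 CPM against 18.9 to 36.1 CPM in MKN7, a log2 difference of -2.79 (SE 0.15) for MKN7 against Hs746T. SNHG25, a short gene hosting SNORD104, had its highest median in N87 (12.8 CPM) and its lowest in MKN1 (1.96 CPM). SNHG31 had medians of 1.22 CPM in N87 and 0.204 CPM in MKN1.

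Ratios of the highest to the lowest line median were 5 or more in these 6 genes, 2 to 5 in 10 genes and below 2 in 10 genes, of the 26 with a median above 0 in every line. GAS5 was among the even ones, at 194 to 297 CPM in N87, 186 to 292 CPM in MKN1, 153 to 217 CPM in MKN7 and 90.3 to 158 CPM in Hs746T. Its level exceeded that of Hs746T in each of the other lines (log2 difference 0.57 to 0.84), whereas the adjusted p for N87 against MKN1 was 0.976 and for N87 against MKN7 0.102. ZFAS1 had medians of 298 CPM in MKN7 and 124 CPM in Hs746T. Counting all members, 17 to 24 of 26 differed between a pair of untreated lines, where 74.1 to 78.2% of all genes tested did. In N87, 8 were higher and 16 lower than in MKN7 (75.3% of all genes called), 9 higher and 8 lower than in MKN1 (77.6%), and 11 higher and 12 lower than in Hs746T (78.1%). In MKN7, 13 were higher and 6 lower than in MKN1 (74.1%) and 10 higher and 8 lower than in Hs746T (76.2%), and in MKN1, 7 were higher and 12 lower than in Hs746T (78.2%).

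**Figure D2:**
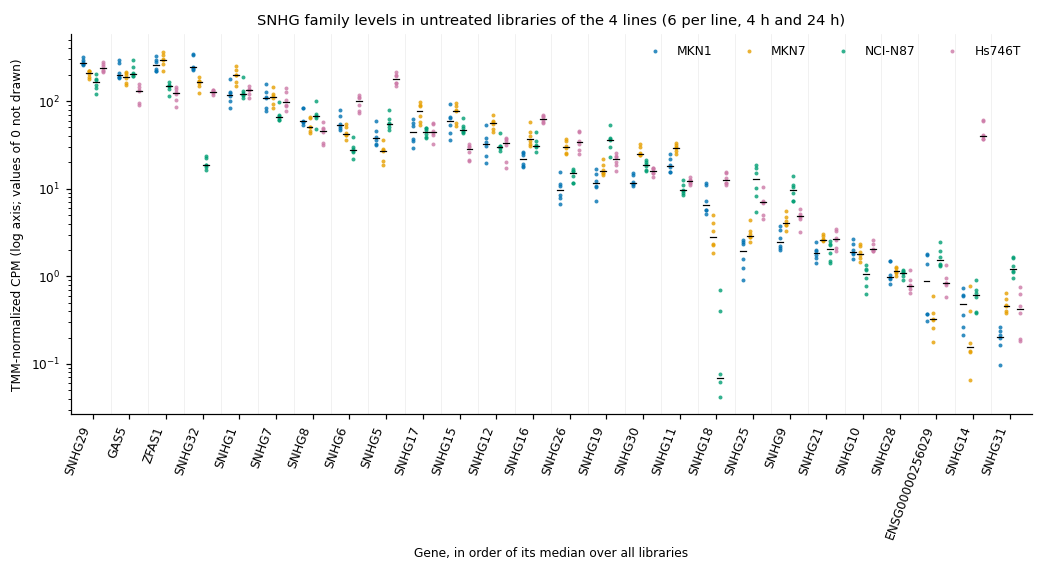
TMM-normalized CPM (log axis) of the 26 members with a count in most libraries, in the 6 untreated libraries of each line, with dots for libraries and bars for the line medians; libraries at 0 are not drawn. SNHG14 and SNHG5 stand high in Hs746T and SNHG32 stands low in N87, while GAS5 and SNHG8 lie close together in all lines.

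In N87, 24 h of afatinib lowered 9 of the 26 members and raised 3, where 31% of all genes tested fell and 31.5% rose. The median log2 fold change was -0.03 over the members and 0.03 over all genes.

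SNHG15 (ENSG00000232956, chr7:44983023-44986961, minus strand), the host of SNORA9, was at 48.9, 44.2 and 45.4 CPM in untreated N87 and at 10.9, 8.92 and 14.5 CPM after 24 h of afatinib. The groups did not overlap, and the log2 fold change was -2.05 (SE 0.23, adjusted p = 8.27e-08 by edgeR). SNHG17 (ENSG00000196756, chr20:38420588-38435353, minus strand), the host of the SNORA71 family, went from 38.1, 42.7 and 46.7 CPM to 10.95, 13.3 and 15.2 CPM (log2 fold change -1.73, SE 0.14). Every treated library lay below every untreated one.

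SNHG26 (ENSG00000228649, chr7:22854178-22861579, plus strand), the host of SNORD93, was 11.5, 11.7 and 14.1 CPM untreated and 3.86, 3.71 and 4.23 CPM treated (log2 fold change -1.69, SE 0.17). SNHG9 (ENSG00000255198, chr16:1964959-1965509, plus strand), the host of SNORA78, was 10.5, 9.01 and 11 CPM untreated and 3.70, 3.06 and 4.63 CPM treated (log2 fold change -1.45, SE 0.33). Neither gene's groups overlapped. SNHG16 (ENSG00000163597, chr17:76557766-76565348, plus strand), the host of SNORD1A to SNORD1C, fell from 26.4, 29.9 and 44.3 CPM to 10.1, 13.1 and 14.6 CPM (log2 fold change -1.45, SE 0.19), and shares 1639 exon bases with the opposite-strand gene AC015802.6. Its untreated 24 h replicate 3 library (44.3 CPM) lay above every other N87 replicate 3 library, at 14.6 to 32.8 CPM. The gene was lower with afatinib in each replicate number. SNHG1 (ENSG00000255717, chr11:62851988-62855914, minus strand), which hosts SNORD22 and SNORD25 to SNORD28 among others, fell from 122, 117 and 109 CPM to 51.3, 52.5 and 71.5 CPM (log2 fold change -1.02, SE 0.28). SNHG12, SNHG30 and SNHG31 also fell, by 0.82, 0.80 and 0.79 on the log2 scale.

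The 3 members that rose in N87 were ENSG00000256029, SNHG28 and SNHG7. ENSG00000256029 (chr1:159834474-159873053, minus strand) was 2.45, 1.96 and 1.33 CPM untreated and 10.9, 10.4 and 8.73 CPM treated (log2 fold change 2.35, SE 0.19, adjusted p = 8.86e-10 by edgeR). SNHG28 (chr1:159834495-159855237, minus strand), which overlaps it, was 1.17, 1.14 and 1.02 CPM untreated and 5.38, 4.76 and 3.55 CPM treated (log2 fold change 2.01, SE 0.20). As their annotated exons share bases, the 2 rises are not independent measurements. SNHG7, the host of SNORA17A and SNORA17B, rose from 68.9, 61.0 and 64.9 CPM to 115, 101 and 122 CPM (log2 fold change 0.76, SE 0.20), and overlaps FAM69B on the opposite strand by 1094 exon bases. Its untreated 24 h replicate 3 library (64.9 CPM) lay below every other N87 replicate 3 library, at 94.5 to 128.5 CPM. The gene was higher with afatinib in each replicate number.

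GAS5 was 210, 202 and 194 CPM in untreated N87 and 175, 170 and 239 CPM after 24 h of afatinib, with a log2 fold change of -0.086 (SE 0.21, adjusted p = 0.739 by edgeR). It was thus lower in replicates 1 and 2 and higher in replicate 3. The untreated 24 h replicate 3 library (194 CPM) lay below every other N87 replicate 3 library, at 232 to 299 CPM. Its share of counts on the members was 0.113%, against 0.124 to 0.148% in those libraries. The near-zero GAS5 value at 24 h therefore leans on that library. The GAS5 groups overlapped, as did those of ZFAS1, at 115, 150 and 164 CPM untreated and 109, 130 and 125 CPM treated (log2 fold change -0.27, SE 0.14, adjusted p = 0.106). SNHG29, SNHG5, SNHG8, SNHG6 and SNHG32 had log2 fold changes from 0.035 to 0.29, none past the test. With the replicate number as a block, 17 members were called in N87 at 24 h, 7 higher and 10 lower, against 72.1% of all genes. Those gained were ZFAS1 (-0.26, SE 0.077, adjusted p = 0.00529), SNHG11, SNHG18, SNHG19 and SNHG32, and GAS5 was not among them (adjusted p = 0.328).

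In MKN7, 24 h of afatinib lowered 6 members and raised 3, where 25% of all genes fell and 26.6% rose. SNHG15 was 56.2, 52.1 and 78.2 CPM untreated and 30.2, 29.3 and 38.3 CPM treated (log2 fold change -0.94, SE 0.16, adjusted p = 5.88e-05 by edgeR). SNHG17 was 53.9, 57.5 and 67.4 CPM untreated and 32.5, 32.0 and 30.9 CPM treated (log2 fold change -0.91, SE 0.097). Both genes' groups were apart. SNHG1, SNHG16, SNHG7 and SNHG30 fell too, by 0.56, 0.51, 0.51 and 0.33 on the log2 scale, SNHG30 with overlapping groups.

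SNHG18 rose in MKN7, from 4.98, 4.03 and 3.28 CPM to 9.14, 8.81 and 8.17 CPM (log2 fold change 1.08, SE 0.14), as did SNHG28 (0.93, SE 0.14) and ENSG00000256029 (1.68, SE 0.30). GAS5 was 160, 153 and 208 CPM untreated and 158, 159 and 183 CPM treated (log2 fold change -0.066, SE 0.12, adjusted p = 0.662), and ZFAS1 had a log2 fold change of -0.27 (SE 0.15, adjusted p = 0.133). With the replicate block 15 members were called, 4 higher and 11 lower, against 63.7% of all genes. Those gained were ZFAS1 (adjusted p = 0.000506), SNHG5, SNHG12, SNHG19, SNHG26 and SNHG31, and GAS5 had an adjusted p of 0.464.

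In MKN1, afatinib at 24 h lowered 7 members and raised 2, where 13.3% of all genes fell and 12.2% rose. SNHG12, the host of SNORA44 and SNORA61, was 19.8, 30.4 and 23.6 CPM untreated and 11.9, 15.4 and 13.1 CPM treated (log2 fold change -0.89, SE 0.24, adjusted p = 0.00589 by edgeR). SNHG15 was 36.0, 53.3 and 42.8 CPM untreated and 23.7, 35.1 and 21.8 CPM treated (log2 fold change -0.73, SE 0.22). SNHG17 was 29.2, 35.1 and 36.8 CPM untreated and 20.9, 24.4 and 20.7 CPM treated (log2 fold change -0.63, SE 0.13). The treated and untreated libraries of these genes did not overlap.

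SNHG1 fell with an adjusted p of 0.0487 and overlapping groups, at 83.4, 128 and 101 CPM untreated and 58.1, 84.5 and 63.3 CPM treated. SNHG16, SNHG26 and ZFAS1 fell by 0.39, 0.54 and 0.34 on the log2 scale, ZFAS1 from 220, 235 and 224 CPM to 164, 197 and 179 CPM. ENSG00000256029 (log2 fold change 1.23, SE 0.27) and SNHG28 (0.81, SE 0.25) rose, and GAS5 had a log2 fold change of -0.067 (SE 0.24, adjusted p = 0.878). GAS5 stood highest in the replicate 2 libraries, at 188, 270 and 188 CPM untreated and 173, 259 and 193 CPM treated. The count of 9 members became 5 without afatinib replicate 1, and 4 without afatinib replicate 3 or without untreated replicate 2. The replicate block gave 12, adding SNHG10, SNHG18 and SNHG30, against 42.2% of all genes.

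Across N87, MKN7 and MKN1 at 24 h, 4 of the 26 members were lower in every line, SNHG1, SNHG15, SNHG16 and SNHG17, as were 1686 of the 16473 genes tested in all 3 (10.2%). SNHG12, SNHG26 and SNHG30 were lower in 2 of the 3 lines, and SNHG9, SNHG31 and ZFAS1 in 1. The shares of all genes lower in 2 lines or in 1 were not counted. SNHG28 and ENSG00000256029 were higher in all 3, as were 6.2% of all genes. SNHG7 was the single member called in both directions, higher in N87 and lower in MKN7. Members called in none of the 3 lines were GAS5, SNHG5, SNHG6, SNHG8, SNHG10, SNHG11, SNHG14, SNHG19, SNHG21, SNHG25, SNHG29 and SNHG32. The share of all genes called in none was not counted, so this list says nothing about the family as a whole. In the blocked fits 8 members were lower in all 3 lines, those 4 and SNHG12, SNHG26, SNHG30 and ZFAS1, where 16.8% of all genes were. In those fits 3 were higher in all, SNHG18 joining SNHG28 and ENSG00000256029, where 10.5% of all genes were. Those called in none were then GAS5, SNHG6, SNHG8, SNHG14, SNHG21, SNHG25 and SNHG29, again without a share of all genes beside them.

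**Figure D3:**
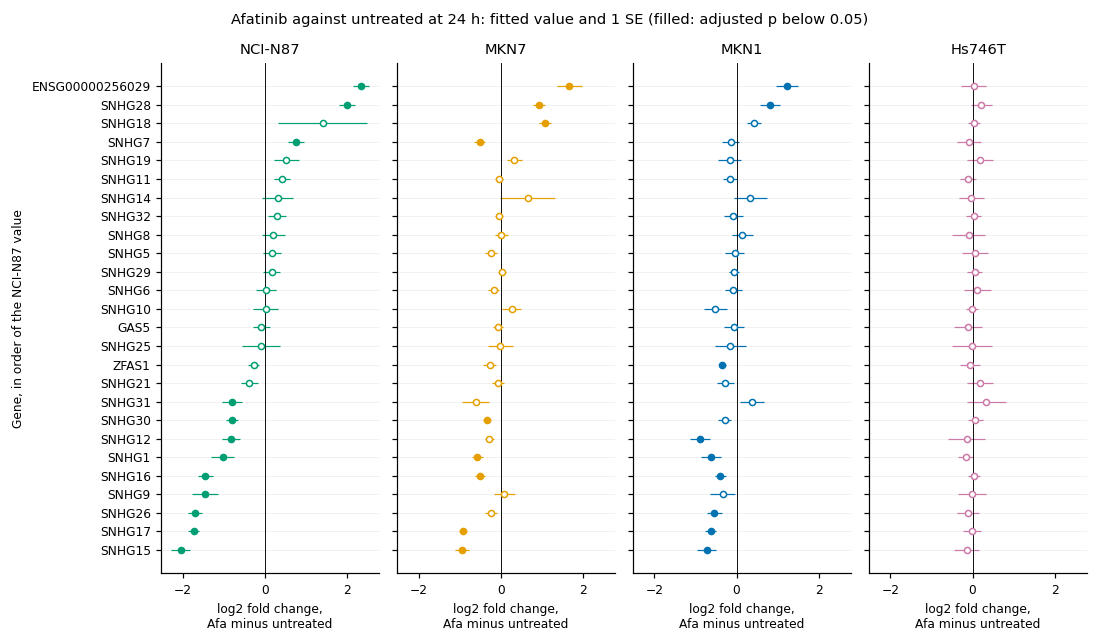
Log2 fold change of afatinib against untreated at 24 h (x axis, with 1 SE) for the 26 members tested (y axis) in each line, filled where the adjusted p was below 0.05. SNHG15, SNHG17, SNHG16 and SNHG1 lie left of 0 with filled points in N87, MKN7 and MKN1, GAS5 lies close to 0 in all lines, and no point is filled in Hs746T.

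The afatinib effects at 24 h were compared between lines by interaction terms. Between N87 and MKN7 the effect differed in 7 members, 2 higher and 5 lower in N87, where it did in 22.7% of all genes. The N87 effect was lower for SNHG9 (log2 difference of the effects -1.51, SE 0.39), SNHG26 (-1.42, SE 0.26), SNHG15 (-1.08, SE 0.31), SNHG16 (-0.91, SE 0.22) and SNHG17 (-0.78, SE 0.20), and higher for SNHG7 (1.30, SE 0.27) and SNHG28 (1.11, SE 0.29). The count was 4 without the replicate 1 libraries, 3 without the replicate 2 libraries and 13 with the replicate block, against 38.3% of all genes in the blocked fit.

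Between N87 and MKN1 it differed in 8 members, 3 higher and 5 lower, with 29.5% of all genes called. SNHG15 (-1.30, SE 0.31) and SNHG26 (-1.13, SE 0.27) differed most among those lower in N87. The replicate block gave 15, against 44.6% of all genes. For MKN7 against MKN1 the effect differed in 0 members by edgeR, with 2 at an unadjusted p under 0.05 and 0 by DESeq2, and 7.57% of all genes were called. The block gave 5 members there, against 24.3% of all genes. GAS5 differed in none of these comparisons, blocked or not.

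After 4 h of afatinib, 5 members were lower and 2 higher in N87, where 9.1% of all genes fell and 9.06% rose. SNHG15 was already at 18.8, 16.2 and 24.4 CPM against 43.2, 52.4 and 63.9 CPM in untreated N87 (log2 fold change -1.42, SE 0.22, adjusted p = 7.22e-05 by edgeR). SNHG17, SNHG26, SNHG16 and ZFAS1 fell by 0.82, 0.82, 0.63 and 0.47 on the log2 scale. ZFAS1 went from 139, 151 and 150 CPM to 98.2, 107.7 and 111 CPM, without overlap, and ENSG00000256029 and SNHG28 rose. GAS5 was 194, 247 and 297 CPM untreated and 168, 167 and 232 CPM treated, with overlapping groups (log2 fold change -0.38, SE 0.21, adjusted p = 0.252). In the blocked fit GAS5 passed the test (adjusted p = 0.00771).

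In MKN7 at 4 h, 4 members were lower and 1 higher, where 12.1% of all genes fell and 10.1% rose. SNHG15 went from 95.0, 76.6 and 88.7 CPM to 44.9, 35.2 and 46.8 CPM (log2 fold change -1.08, SE 0.16). SNHG16, SNHG17 and ZFAS1 fell by 0.83, 0.81 and 0.51 on the log2 scale, and SNHG18 rose from 2.32, 1.86 and 2.29 CPM to 4.34, 3.95 and 4.78 CPM. GAS5 was 217, 197 and 183 CPM untreated and 172, 165 and 192 CPM treated (log2 fold change -0.21, SE 0.12, adjusted p = 0.216). The replicate block gave 12 members, 2 higher and 10 lower, GAS5 among them (adjusted p = 0.0127), against 38.4% of all genes.

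In MKN1 at 4 h the single member called was ENSG00000256029, at 0.309, 0.367 and 0.370 CPM untreated and 0.732, 0.961 and 1.24 CPM treated, against 3.68% of all genes. It was not called without afatinib replicate 3 or without untreated replicate 1, which left 0 members, and 2 were called with the replicate block, against 13.2% of all genes. GAS5 (-0.038, SE 0.24) and ZFAS1 (-0.14, SE 0.087) had log2 fold changes that did not pass the test. SNHG15, SNHG16, SNHG17 and ZFAS1 were thus lower at 4 h in N87 and MKN7. The share of all genes lower in both lines was not counted, so this says nothing about the family as a whole. In all 3 lines 0 members were lower at 4 h, against 1.37% of all genes.

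**Figure D4:**
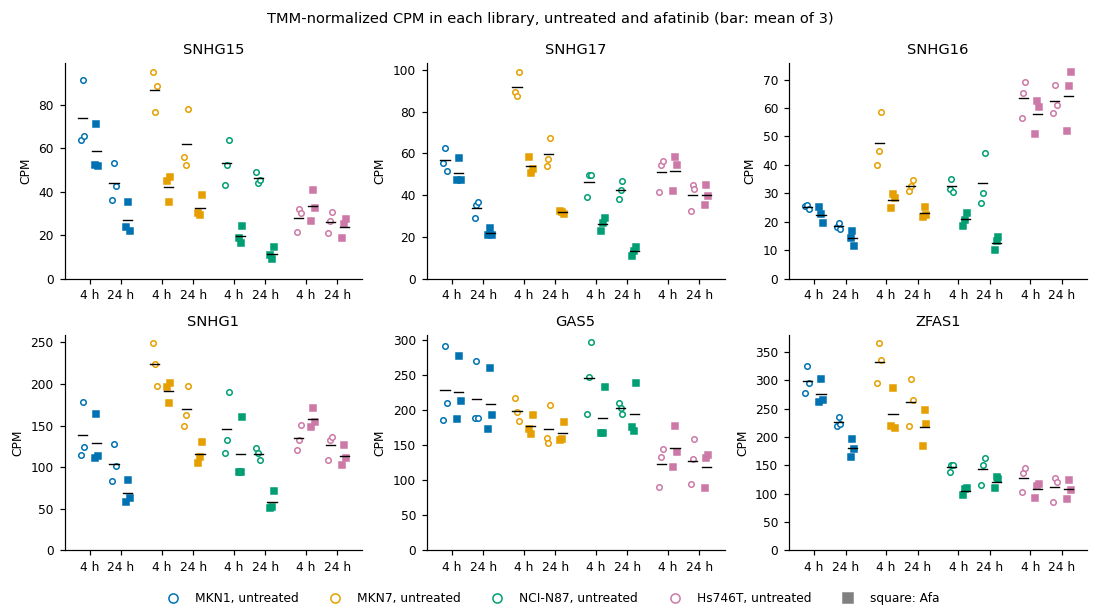
TMM-normalized CPM (y axis, linear) of 6 members in each untreated (open circle) and afatinib (square) library at 4 h and 24 h in the 4 lines, with a bar at the mean of 3 libraries. Afatinib libraries of SNHG15 and SNHG17 lie below the untreated ones in N87 and MKN7 at both times, while the GAS5 libraries of the groups overlap in every line at 24 h.

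In Hs746T, edgeR called 0 members at 4 h and 0 at 24 h of afatinib, with 0% of all genes called at either time. At an unadjusted p under 0.05 there were 3 members at 4 h and 0 at 24 h, and DESeq2 called 0 and 0. SNHG15 was 20.9, 26.6 and 30.7 CPM untreated and 18.6, 25.2 and 27.5 CPM after 24 h of afatinib, and SNHG17 32.6, 45.0 and 43.1 CPM untreated and 35.5, 45.0 and 39.6 CPM treated. Both genes' groups overlapped. GAS5 had a log2 fold change of -0.12 (SE 0.34) at 24 h and 0.29 (SE 0.34) at 4 h, and ZFAS1 of -0.066 (SE 0.24) at 24 h.

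At 4 h the count in Hs746T depended on the block. With the replicate number as a block 15 of 26 members were called, 13 higher and 2 lower, against 18.6% of all genes. GAS5 then had a log2 fold change of 0.30 (SE 0.080, adjusted p = 0.00939), SNHG9 of 0.74 (SE 0.17) and SNHG7 of 0.34 (SE 0.081), while ZFAS1 (-0.20, SE 0.066) and SNHG31 (-1.10, SE 0.39) were lower. In the libraries, GAS5 was 90.3, 133 and 144 CPM untreated and 119, 178 and 140 CPM treated, so that replicate 3 did not share the direction of replicates 1 and 2. All 6 treatments at 4 h had a positive median log2 fold change over the members, from 0.13 to 0.28, and all were set against the same 3 untreated libraries. The other 5 treatments called 0 members in Hs746T at either time by edgeR or DESeq2, with at most 1 at an unadjusted p under 0.05. For these treatments edgeR called 0% of all genes at either time.

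The afatinib effect of N87 differed from that of Hs746T at 24 h in 10 members, 3 higher and 7 lower, where 37.1% of all genes did. The difference was -1.88 (SE 0.31) for SNHG15, -1.68 (SE 0.20) for SNHG17, -1.56 (SE 0.26) for SNHG26 and 2.36 (SE 0.35) for ENSG00000256029. MKN7 and Hs746T differed in ENSG00000256029 (1.65, SE 0.39) and SNHG17 (-0.90, SE 0.20), with 19.4% of all genes called, and in 0 members without the replicate 3 libraries. With the block they differed in 9, against 35.9% of all genes. MKN1 and Hs746T differed in ENSG00000256029 (1.22, SE 0.35), with 3.85% of all genes called. That call was lost without the libraries of any 1 replicate number, and 10 members were called with the block, against 19.8% of all genes.

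In MKN1, EGF for 24 h raised 5 members and lowered 4, where 17.3% of all genes rose and 18.5% fell. SNHG15 was 36.0, 53.3 and 42.8 CPM untreated and 68.1, 90.8 and 67.8 CPM with EGF (log2 fold change 0.80, SE 0.22, adjusted p = 0.00499 by edgeR). SNHG16, SNHG26, SNHG17 and ZFAS1 rose by 0.62, 0.60, 0.47 and 0.29 on the log2 scale. The 24 h afatinib libraries of MKN1, set against the same untreated libraries, gave -0.73 for SNHG15, -0.39 for SNHG16, -0.54 for SNHG26, -0.63 for SNHG17 and -0.34 for ZFAS1.

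ENSG00000256029 (log2 fold change -1.76, SE 0.32), SNHG31 (-1.24, SE 0.36), SNHG18 (-0.996, SE 0.18) and SNHG28 (-0.92, SE 0.27) fell with EGF. SNHG18 was 11.7, 11.1 and 7.30 CPM untreated and 5.27, 5.14 and 4.50 CPM with EGF. GAS5 was 211, 286 and 227 CPM with EGF, overlapping the untreated libraries (log2 fold change 0.18, SE 0.24, adjusted p = 0.586). With the replicate block 16 members were called at 24 h of EGF, 12 higher and 4 lower, against 51.1% of all genes. At 4 h EGF gave 0 members by edgeR, 1 at an unadjusted p under 0.05, 1 by DESeq2 and 4 with the block, with 6.82% of all genes called and 17% with the block.

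Cetuximab alone for 24 h lowered 3 members in MKN1 and raised 1, where 5.91% of all genes fell and 4.92% rose. SNHG17 was 21.8, 26.5 and 23.2 CPM with cetuximab against 29.2, 35.1 and 36.8 CPM untreated (log2 fold change -0.52, SE 0.13, adjusted p = 0.00731 by edgeR). SNHG12 (log2 fold change -0.73, SE 0.24) and ZFAS1 (-0.27, SE 0.087) fell and ENSG00000256029 rose (0.84, SE 0.27), each with an adjusted p of 0.0426 to 0.0431. GAS5 had a log2 fold change of -0.34 (SE 0.24, adjusted p = 0.399). The count of 4 was 8 by DESeq2 and 2 with library size alone as the scaling, 0 without untreated replicate 3, 1 without cetuximab replicate 3 or untreated replicate 2, and 2 without cetuximab replicate 2. The median log2 fold change was -0.35 over the members, with 22 of 26 below 0, and 0.014 over all genes. Same-numbered cetuximab and untreated libraries did not all pair, with correlations of their deviations of 0.207, -0.0124 and 0.227. In replicate 2, 0.1425% of counts fell on the members with cetuximab and 0.1948% in untreated cells. A treatment effect and a difference between these sets of libraries cannot be told apart here. At 4 h cetuximab gave 0 members by edgeR, 1 at an unadjusted p under 0.05, 1 by DESeq2 and 1 with the block, with 1.43% of all genes called and 7.5% with the block.

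EGF with cetuximab for 24 h raised 5 members of MKN1 and lowered 2 against untreated cells, with 18.6% of all genes called. The 5 were SNHG15, SNHG16, SNHG17, SNHG26 and ZFAS1, with log2 fold changes from 0.31 to 0.64. SNHG15 was 58.4, 86.1 and 60.4 CPM, all above the untreated libraries, and GAS5 had a log2 fold change of 0.22 (SE 0.24, adjusted p = 0.576). Against EGF alone, EGF with cetuximab gave 0 members by edgeR at 24 h, 1 at an unadjusted p under 0.05 and 0 by DESeq2, with 0.646% of all genes called.

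**Figure D5:**
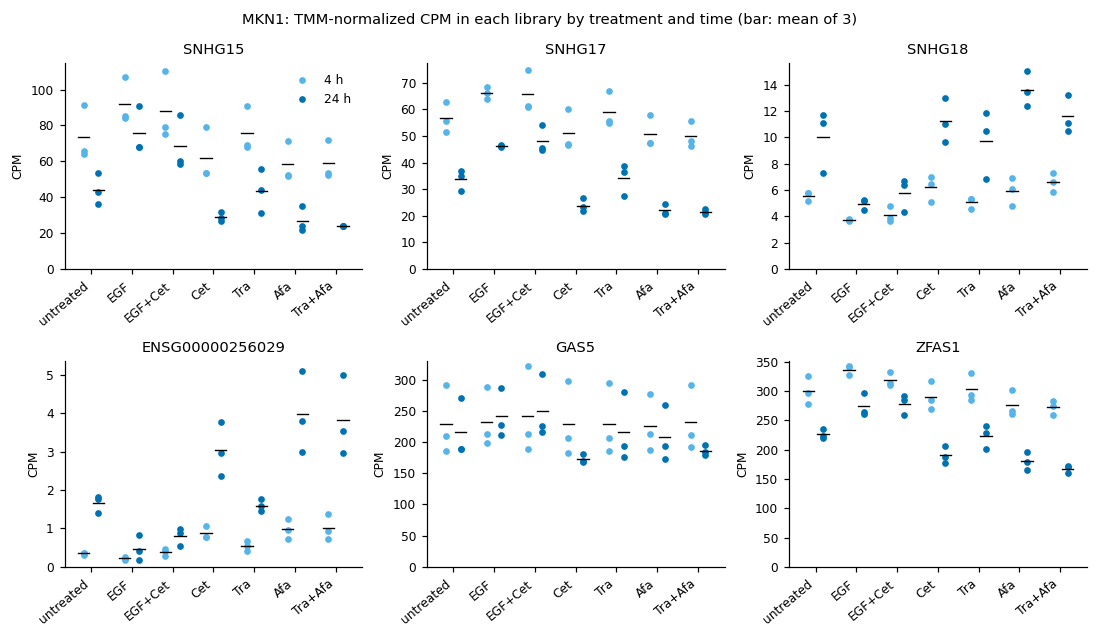
TMM-normalized CPM (y axis, linear) of 6 members in each MKN1 library by treatment (x axis) at 4 h (light) and 24 h (dark), with a bar at the mean of 3 libraries. At 24 h the SNHG15 libraries lie at 68.1, 90.8 and 67.8 CPM with EGF and at 23.7, 35.1 and 21.8 CPM with afatinib, on either side of the untreated ones. SNHG18 and ENSG00000256029 fell with EGF, and ENSG00000256029 rose with afatinib. The change of SNHG18 with afatinib was above 0 but was called only with the replicate block.

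Untreated libraries of both times were set against each other, and the 24 h ones are also the controls of the 24 h treatments. Time since plating and time since the last medium change both differ between the times, and their shares were not tested. In untreated MKN1, 7 members were lower and 2 higher at 24 h than at 4 h, where 16.4% of all genes were lower and 17.7% higher. SNHG17 went from 55.6, 62.7 and 51.5 CPM at 4 h to 29.2, 35.1 and 36.8 CPM at 24 h (log2 fold change -0.77, SE 0.13, adjusted p = 1.56e-05 by edgeR). SNHG12, SNHG15, SNHG16, SNHG26, SNHG7 and ZFAS1 were lower too, and ENSG00000256029 (2.23, SE 0.35) and SNHG18 (0.83, SE 0.18) higher. GAS5 had a log2 fold change of -0.11 (SE 0.24, adjusted p = 0.772).

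In untreated MKN7, 7 members were lower and 1 higher at 24 h, where 9.43% of all genes were lower and 6.96% higher. SNHG17 fell by 0.66 on the log2 scale and SNHG18 rose by 0.90 (SE 0.15). SNHG1, SNHG5, SNHG7, SNHG15, SNHG16 and SNHG32 also fell, while GAS5 (-0.23, SE 0.12) and ZFAS1 (-0.38, SE 0.15) did not pass the test. The count of 8 was 3 without the 24 h replicate 1 or 2 or the 4 h replicate 1, and 5 without the 4 h replicate 3. With the replicate block it was 12, against 30.9% of all genes, GAS5 among those gained.

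Untreated N87 and Hs746T gave 0 members by edgeR between the times, 1 each at an unadjusted p under 0.05, and 0 and 0 by DESeq2. With the block SNHG26 was called in N87 and SNHG17 in Hs746T. Of all genes, 0.267% were called in N87 and 1.48% in Hs746T, and 4.32% and 10.2% with the block.

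Trastuzumab alone gave 0 members by edgeR in all 4 lines at both times, with at most 1 at an unadjusted p under 0.05 in each comparison and 0 by DESeq2, and 0% of all genes were called. With trastuzumab and afatinib together for 24 h, set against the same untreated libraries as afatinib alone, 8 members were lower and 3 higher in N87, 6 lower and 3 higher in MKN7, and 9 lower and 2 higher in MKN1, with 64.7%, 51.9% and 26.8% of all genes called. SNHG15 was 9.66, 7.92 and 14.5 CPM in N87 with both agents (log2 fold change -2.15, SE 0.23). In MKN1, ZFAS1 was 161, 172 and 171 CPM with both agents, below its 3 untreated libraries (log2 fold change -0.46, SE 0.087). Same-numbered MKN1 libraries did not all pair in this comparison (correlations of 0.098, -0.0561 and 0.115). A treatment effect and a difference between the sets of libraries cannot be told apart there. GAS5 had log2 fold changes of -0.14 in N87, -0.042 in MKN7 and -0.25 in MKN1, none past the test.

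Trastuzumab with afatinib was also set against trastuzumab alone, a comparison that uses none of the untreated libraries. At 24 h, 8 members were lower and 2 higher in N87 (61.8% of all genes called), 5 lower and 4 higher in MKN7 (44.4%), and 10 lower and 2 higher in MKN1 (27.9%). The MKN1 libraries did not all pair by number here either (correlations of 0.247, -0.0649 and 0.171), with the same limit. SNHG15 was 44.4, 40.3 and 59.0 CPM in N87 with trastuzumab and 9.66, 7.92 and 14.5 CPM with both agents (log2 fold change -2.18, SE 0.23). Its log2 fold change was -0.81 (SE 0.16) in MKN7 and -0.90 (SE 0.22) in MKN1, and that of SNHG17 was -1.68 (SE 0.14), -0.78 (SE 0.097) and -0.70 (SE 0.13) in N87, MKN7 and MKN1. Neither gene's groups overlapped in these lines. ZFAS1 fell in MKN1 (-0.44, SE 0.087) and had values of -0.054 and -0.19 in N87 and MKN7 that did not pass the test. SNHG7 was not among the 2 members higher in N87 at 24 h. The blocked fit called it higher there (log2 fold change 0.45, SE 0.097, adjusted p = 0.000328 by edgeR). At 4 h, 4 members were lower and 1 higher in N87 (19.7% of all genes called), 7 lower and 2 higher in MKN7 (20.5%), and 1 higher in MKN1 (3.08%). In Hs746T edgeR called 0 members at either time, with 0 at an unadjusted p under 0.05, DESeq2 called 0, and 0% of all genes were called.

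GAS5 was 220, 199 and 293 CPM in N87 with trastuzumab for 24 h and 150.3, 169 and 244 CPM with both agents, lower in each of the 3 replicate numbers but with overlapping groups (log2 fold change -0.36, SE 0.21, adjusted p = 0.145 by edgeR). The blocked fit called it lower (-0.37, SE 0.11, adjusted p = 0.00412). In MKN7 at 4 h its groups did not overlap, at 208, 240.2 and 207 CPM with trastuzumab and 175, 173 and 193 CPM with both agents. The log2 fold change there was -0.27 (SE 0.12, adjusted p = 0.102), and the blocked fit called it lower (adjusted p = 0.00175). It was not called at 24 h in MKN7 (-0.050, SE 0.12) or MKN1 (-0.25, SE 0.24), nor at 4 h in N87 or MKN1, blocked or not. The block called 15 members in N87 (71.4% of all genes) and 14 in MKN7 (58.7%) at 24 h, and 9 in N87 (34.5%), 15 in MKN7 (38.1%) and 5 in MKN1 (10.9%) at 4 h. Leaving out replicate 1 or 3 gave 7 or 5 members in MKN1 at 24 h, library size alone gave 6 there, and leaving out replicate 1 gave 4 in MKN7 at 4 h. The single call in MKN1 at 4 h was SNHG28, lost without any 1 replicate number.

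Other genes of the pathway were counted on lists compiled by role, to be read beside the 31% of all genes that fell in N87, 25% in MKN7 and 13.3% in MKN1 at 24 h of afatinib. Protein-coding genes that host snoRNAs fell in 18 of 19 tested in N87 at 24 h of afatinib (median log2 fold change -1.03), in 17 of 19 in MKN7 with 1 higher (-0.48), and in 14 of 19 in MKN1 (-0.38). The core proteins and assembly factors of snoRNA particles fell in 17 of 18 in N87 (median -1.21), in 16 of 18 in MKN7 (-0.68) and in 11 of 18 in MKN1 (-0.39). With EGF in MKN1 at 24 h, 12 of 19 protein-coding hosts and 14 of 18 particle proteins rose, and none fell, where 17.3% of all genes rose. With cetuximab 10 of the 19 and 9 of the 18 fell, where 5.91% of all genes fell. The MKN1 libraries of that comparison did not all pair by number. A treatment effect and a difference between the sets of libraries cannot be told apart for these counts either.

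The cytosolic ribosomal proteins, which share the 5′ TOP motif with some members, gave 6 lower and 1 higher of 77 in N87 at 24 h of afatinib (median log2 fold change -0.11). In MKN7 the count was 6 lower and 1 higher of 77, and in MKN1 4 lower of 78. Other 5′ TOP mRNAs gave 5 lower and 1 higher of 14 in N87, 5 lower and 2 higher in MKN7 and 1 lower in MKN1. Factors of nonsense-mediated decay fell in 11 and rose in 2 of 15 in N87, and fell in 8 with none higher in both MKN7 and MKN1. Known targets of that decay, a class to which GAS5 belongs, fell in 9 and rose in 1 of 16 in N87, in 7 with 5 higher in MKN7, and in 7 with none higher in MKN1. In Hs746T, edgeR called 0 genes of any of these lists with afatinib.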

How the data were processed

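Poly(A) RNA of 132 cell line libraries was sequenced. The authors deposited raw counts per Ensembl gene, 1 table per library. The submitters' processing notes name Trim Galore, STAR and hg38, with no versions, and the counting tool, its strand setting and its handling of overlapping genes are not given in the sources used here. Genes were identified through GENCODE 29 and the current symbol table, and 23602 identifiers had no current symbol.

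The members and the gene lists were chosen with earlier results of these data known. All 132 tables entered, with 3 libraries per group by the labels, 0 identical libraries and 25832557 to 69434151 counts each. Counts were fitted with edgeR 4.0.16 in R 4.3.3 (TMM scaling, filterByExpr with at least 10 counts and a total of 15, quasi-likelihood F test). All libraries of a line entered its fit. The untreated and afatinib libraries of all lines entered 1 fit for differences between lines. Benjamini-Hochberg adjustment ran over all genes tested, a gene was called at an adjusted p below 0.05, and the SE is the log2 fold change divided by the root of F. P-values measure the spread between these cultures. Levels per kb used the union of annotated exons. Simulated counts with known changes were tested first: for afatinib in N87 at 24 h, 42% of genes changed by 0.5 and 100% of those changed by 1.5 on the log2 scale were recovered among 17873 genes. For MKN7 the rates were 59% and 99%, and each run made 7 false calls. Only 100 genes were changed by each amount and every library was drawn independently. The real comparisons had far more genes called and paired libraries, so these rates do not give their power.

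GAS5, ZFAS1 and up to 6 called members per comparison with the largest absolute log2 fold change and a mean above 1 CPM were to be described with values, and every other member at least once. SNHG16, SNHG1 and further members below that rank were added to compare lines. Same-numbered libraries were taken as pairs where each pair's deviations from the group means correlated above 0.1 over 11827 genes. That held for every comparison with untreated cells within a time except cetuximab and trastuzumab with afatinib in MKN1 at 24 h, and for trastuzumab with afatinib against trastuzumab except in MKN1 at 24 h. Blocked counts are given where they moved a count by over 1.5 times. Alternatives were DESeq2 1.42.0, library size without TMM, other count filters, only the groups compared, the block, and leaving out libraries. Promoter windows are those of RefSeq. Tables and figures used Python 3.11.15, pandas 2.3.3 and matplotlib 3.10.9.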

Additional observations from a re-analysis of the deposited data

Results flagged for a closer look

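The size of the afatinib effect at 24 h, tested by interaction terms of edgeR's quasi-likelihood fit over 4 lines, differed between lines for 28 pairs of a gene and a line comparison. Values are the log2 fold change in the first line minus that in the second. For N87 against MKN7 the differences were -1.51 for SNHG9, -1.42 for SNHG26, 1.30 for SNHG7, 1.11 for SNHG28, -1.08 for SNHG15, -0.91 for SNHG16 and -0.78 for SNHG17. For N87 against MKN1 they were -1.30 for SNHG15, 1.21 for SNHG28, 1.13 for ENSG00000256029, -1.13 for SNHG26, -1.10 for SNHG9, -1.08 for SNHG17, -1.03 for SNHG16 and 0.93 for SNHG7. MKN7 against MKN1 had 0 by edgeR, with 2 at an unadjusted p under 0.05, and 0 by DESeq2.

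Against Hs746T, the afatinib effect of MKN1 differed by 1.22 for ENSG00000256029, and that of MKN7 by 1.65 for ENSG00000256029 and -0.90 for SNHG17. That of N87 differed by 2.36 for ENSG00000256029, -1.88 for SNHG15, 1.84 for SNHG28, -1.68 for SNHG17, -1.56 for SNHG26, -1.44 for SNHG16, -1.39 for SNHG9, 0.87 for SNHG7, -0.83 for SNHG1 and -0.82 for SNHG30. SNHG7 alone among these genes was called in opposite directions against untreated cells at 24 h, higher in N87 and lower in MKN7. With trastuzumab and afatinib against trastuzumab alone, its rise in N87 at 24 h was called only in the blocked fit. Among the N87 replicate 3 libraries, the untreated 24 h library was the lowest for SNHG7 and the highest for SNHG16. That library enters every difference above that involves N87. ENSG00000256029 and SNHG28 share exon bases and are not independent.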

How the results depend on the processing

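Of 282 alternative counts of called members, 237 stayed within 1.5 times the reported count and 45 did not. With the replicate block the counts were, for afatinib, 2 (MKN1 4 h), 12 (MKN7 4 h), 15 (MKN7 24 h) and 15 (Hs746T 4 h), for EGF in MKN1 4 (4 h) and 16 (24 h), for cetuximab in MKN1 1 (4 h) and 17 (24 h, where the numbers did not pair all libraries), and for 24 h against 4 h untreated 1 in N87 and 1 in Hs746T. For differences of the afatinib effect the block gave 13 (N87 and MKN7), 15 (N87 and MKN1), 5 (MKN7 and MKN1), 10 (MKN1 and Hs746T) and 9 (MKN7 and Hs746T). DESeq2 gave 1 for EGF at 4 h, 1 for cetuximab at 4 h and 8 for cetuximab at 24 h in MKN1, and library size alone 1 for EGF at 4 h and 2 for cetuximab at 24 h. Fitting only the groups compared gave 1 for EGF at 4 h, 5 for afatinib at 24 h in MKN1, and 2 for time in untreated MKN7. At least 10 counts in every library left 0 for afatinib in MKN1 at 4 h and 0 for MKN1 against Hs746T, which was also 0 with no filter. Leaving out 1 library gave 0 to 4 for cetuximab at 24 h, 4 to 9 for afatinib at 24 h and 0 to 1 for afatinib at 4 h in MKN1, and 3 to 8 for time in MKN7. Leaving out 1 replicate number gave 3 to 7 for N87 against MKN7, 0 to 1 for MKN1 against Hs746T and 0 to 2 for MKN7 against Hs746T. The cause was not tested. Over single genes, the log2 fold change of GAS5 changed sign in 49 of 282 alternatives and that of ZFAS1 in 11 of 282, in each case without a call on either side, and that of the other named members in 0 of 979. The other named members were picked for a call and a large change in the same comparison, whereas GAS5 and ZFAS1 entered every comparison. These rates therefore cannot be set against each other.

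No paired analysis was possible between untreated lines because cultures of different lines share no replicate pairing. Within a line, the 4 h and 24 h untreated libraries of a replicate number were taken as independent in these comparisons, though their deviations correlated. Depth limits SNHG14, SNHG18 and SNHG31 where they lie under 1 CPM.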
